A study of Danio rerio with 2 samples.

Results

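The DNA replication genes described here are 36 listed gene symbols whose products license origins, unwind and copy DNA, supply nucleotides or pack new DNA into chromatin. All 36 symbols were present in the gene list of the deposited matrices, as 37 of its 27771 features, because the symbol rrm2 stands for 2 Ensembl genes. Members were followed across the 15 cell clusters of the authors' table and cell by cell in the raw count matrices. The cells came from zebrafish trunks at 27 hours post fertilization and were sorted on membrane mCherry driven by the promoter of kdrl, a VEGF receptor gene of endothelial cells. There was 1 mutant library and 1 wildtype library. The mutant fish carried miR-223(ya303) and Tg(miR-223:KalTA4)ya363. The wildtype fish carried Tg(miR-223:KalTA4)ya362. Fish of both groups also carried Tg(5xUAS:eGFP)nkuasgfp1a and Tg(kdrl:hras-mCherry)s896, so both groups carried a miR-223:KalTA4 transgene, under different allele names. With 1 library a group, every comparison is between these 2 libraries, no test across samples was possible, and genotype cannot be told apart from clutch, activator allele, sort and library preparation. Genotypes are those of the labels, since mir223 itself was not analysed here.

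A cell copies its genome once per cycle, in S phase. Origins are bound by the origin recognition complex, on which Cdc6 and Cdt1 load the ring of Mcm proteins. The GINS complex turns that ring into the active helicase, and primase and polymerases then lay down new strands held by the Pcna clamp. Transcripts of many of these genes peak around the start of S phase, so their level in a group of cells depends both on how many cells cycle and on how much RNA each such cell holds. Primitive erythroid cells of the young zebrafish still divide in circulation, whereas muscle fibres have left the cycle.

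The mutant library held 9176 cell barcodes and 125149083 UMIs (unique molecular identifiers, 1 for each captured transcript) and the wildtype library 8702 barcodes and 92241952 UMIs. The median was 9163 UMIs per barcode in the mutant library and 7316 in the wildtype library. The libraries shared 98 barcode sequences, of which 79 passed the filters in both. The authors' table held 6125 mutant and 6227 wildtype cells. Endothelial markers named 6 of its 15 clusters (4128 mutant and 5006 wildtype cells), of which cluster 3 was arterial-like and clusters 0, 2 and 5 were venous-like. The label of the sort therefore held for most cells, but erythroid-, progenitor-, myeloid-, mesenchymal-, muscle-, notochord- and epidermal-like clusters were present in both libraries. Cluster 9 had all 13 neural markers raised, but a cartilage collagen gene stood among its leading genes, and it is left unnamed. Clusters 0 and 2 were split by library, with 1846 mutant and 283 wildtype cells in cluster 0 and 31 mutant and 1925 wildtype cells in cluster 2.

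In the authors' table, replication transcripts were highest in cluster 9, in erythroid-like and mesenchymal-like cells and in blood progenitor-like cells, and lowest in muscle-like cells. Levels are the UMIs of the 37 features summed, divided by all UMIs of the same cells and given in CPM, a scale on which every group of cells has the same total, with exact Poisson 95% intervals that cover counting error only. In cluster 9 the summed level was 5937 CPM (5753 to 6126) in the mutant and 5830.4 CPM (5640.3 to 6025) in the wildtype library. Erythroid-like cluster 4 followed with 5248 CPM (5204 to 5293) in the mutant and 4731 CPM (4671 to 4793) in the wildtype library. Mesenchymal-like cluster 7 had 4282 CPM in the mutant and 4078 CPM in the wildtype library. Progenitor-like cluster 8 had 3537 CPM (3436 to 3639) in the mutant and 3161 CPM (3067 to 3257) in the wildtype library. In the table these places, 1 to 4, were the same in both libraries, and neighbours among them had intervals that did not overlap. Counting intervals, here and below, leave out the spread between cells. Intervals that do not overlap therefore do not settle an order. The place of erythroid-like cells depended on which cells were taken. Cluster 4 holds 1117 mutant and 542 wildtype cells at a mean of 9115 UMIs per mutant and 9052 UMIs per wildtype cell, whereas the erythroid-like class rebuilt from the raw matrices holds 2643 mutant and 1302 wildtype cells at medians of 27727 UMIs in mutant and 30885 UMIs in wildtype cells. In the rebuilt classes the erythroid-like level, 3780 CPM in the mutant and 3413 CPM in the wildtype library, lay below the mesenchymal-like level, 4915 CPM in the mutant and 5037 CPM in the wildtype library. It also lay below the progenitor-like level, 3980 CPM in the mutant and 3591 CPM in the wildtype library, and these intervals did not overlap either. The rebuilt mesenchymal-like class had a neural marker score of 2.63 beside a mesenchymal marker score of 3.8, whereas cluster 7 had 0.44 and 3.96. Values of that rebuilt class, here and below, may thus include cells like those of cluster 9, which was not tested.

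Below them the order depended on the library. In the mutant library arterial-like cluster 3 had 3461 CPM (3411 to 3511), which was not distinguishable from progenitor-like cells by counting error, and endothelial-like cluster 6, led by aqp8a.1 and apoc1, had 2155 CPM. In the wildtype library cluster 6 stood above cluster 3, with 3135 CPM (3043 to 3229) against 2689 CPM (2648 to 2729), and was itself not distinguishable from progenitor-like cells. Both venous-like clusters that were split by library were low where they were large. Cluster 0 had 933 CPM in its 1846 mutant cells and 2141 CPM in its 283 wildtype cells, and cluster 2 had 2660.0 CPM in its 31 mutant cells and 566 CPM in its 1925 wildtype cells. Venous-like cluster 5 had 917 CPM in the mutant and 1031 CPM in the wildtype library. Muscle-like cluster 10 had 241 CPM in the mutant and 505 CPM in the wildtype library. Its level stands here as a background, on the assumption that these cells are outside the cycle. Neither that assumption nor what gives this level was tested.

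**Figure D1:**
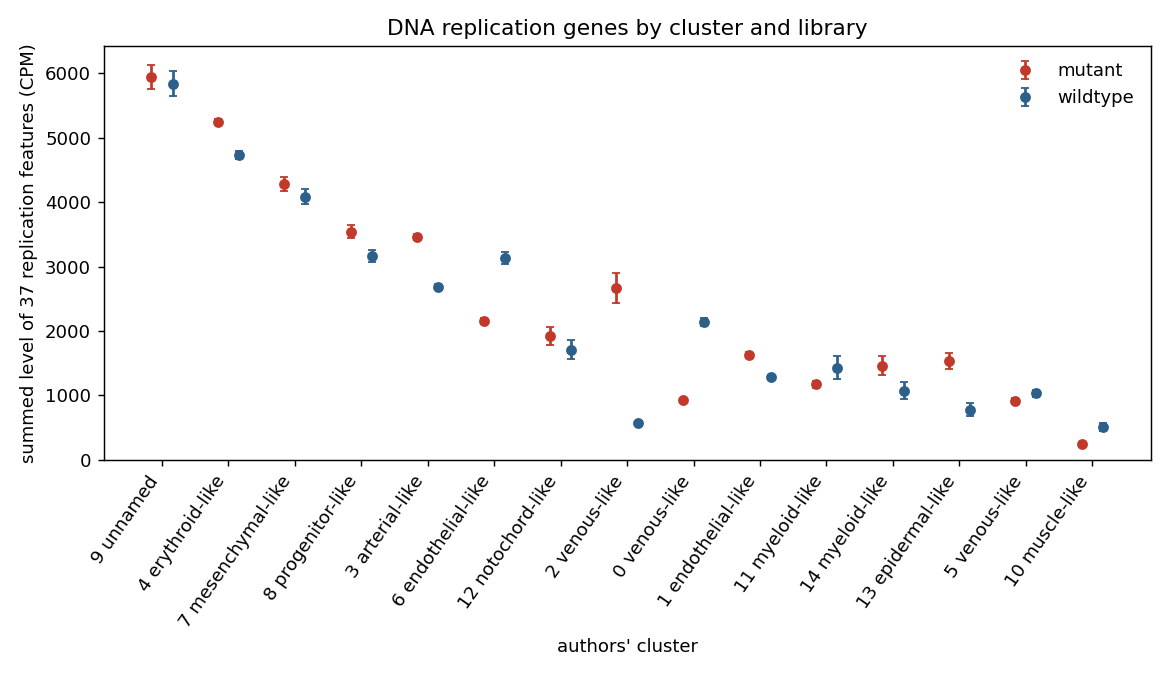
Summed level of the 37 replication features (CPM, vertical axis) in each of the 15 clusters of the authors' table, mutant (red, left) beside wildtype (blue, right), with exact Poisson 95% intervals as bars. Clusters run by the mean of both libraries, from cluster 9 (5937 and 5830.4 CPM) to muscle-like cluster 10 (241 and 505 CPM), and clusters 6, 0 and 2 show the widest gaps between libraries among the endothelial-like clusters.

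Single members followed this order with differences by role. In the mutant library 16 of the 37 features had their highest level in erythroid-like cells, 13 in cluster 9, 6 in progenitor-like and 2 in mesenchymal-like cells. In the wildtype library the numbers were 9, 17, 5 and 5, and 1 feature was highest in myeloid-like cluster 11, which held only 18 wildtype cells. Muscle-like cells had the lowest level of 32 features in the mutant and 17 in the wildtype library. Pcna, the sliding clamp, showed the overall pattern, with 1348 CPM in cluster 9 and 914 CPM in erythroid-like cells of the mutant library, against 1182 and 848 CPM in those of the wildtype library. Its lowest level was 48.1 CPM, in muscle-like cells, in the mutant library, and 59.2 CPM, in venous-like cluster 2, in the wildtype library.

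Licensing genes did not share 1 maximum. Cyclin E2 (ccne2), which starts S phase together with its kinase, had 99.4 CPM in mutant and 96.4 CPM in wildtype erythroid-like cells, and its next highest level, in cluster 9, was 31.7 CPM in mutant and 36.1 CPM in wildtype cells. The helicase loader gene cdc6 was also highest in erythroid-like cells of the table, with 102 CPM in the mutant and 97.0 CPM in the wildtype library. In the deeper rebuilt erythroid-like class both were lower, with ccne2 at 56.3 CPM in the mutant and 57.4 CPM in the wildtype library and cdc6 at 54.9 CPM in the mutant and 56.9 CPM in the wildtype library. There cdc6 was close to its mesenchymal-like level, 50.9 CPM in the mutant and 48.8 CPM in the wildtype library. In the table the cdc6 intervals of erythroid-like cells overlapped those of cluster 9 in both libraries. By contrast mcm5, a subunit of the helicase ring, had 149 CPM in mutant and 127 CPM in wildtype progenitor-like cells, above its 131 CPM in mutant and 110.5 CPM in wildtype erythroid-like cells. Its mutant maximum was in progenitor-like cells, and its wildtype maximum, 159 CPM, was in cluster 9. The mcm5 intervals of progenitor-like and erythroid-like cells overlapped in both libraries. The progenitor-like interval also overlapped that of mesenchymal-like cells (145 CPM) in the mutant library and that of cluster 9 in the wildtype library. The ring gene mcm2 had 159 CPM in mutant and 142 CPM in wildtype progenitor-like cells.

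Among the genes that act at the fork, the 3 genes of the single-strand binding complex RPA were highest in the erythroid-like cells of the table. There rpa1 had 194 CPM in the mutant and 164.5 CPM in the wildtype library. The rpa3 level was 370.2 CPM in the mutant and 294 CPM in the wildtype library, and that of rpa2 383 CPM in the mutant and 292 CPM in the wildtype library. Intervals overlapped those of cluster 9 for rpa1 in both libraries and for rpa3 in the wildtype library. In the rebuilt classes rpa1 was at 139.5 CPM in mutant and 115 CPM in wildtype erythroid-like cells, against 142 CPM in mutant and 137 CPM in wildtype mesenchymal-like cells, and wildtype rpa3 was also higher in mesenchymal-like (237 CPM) than in erythroid-like cells (229 CPM). Primase subunit gene prim1 had 55.9 CPM in mutant and 54.8 CPM in wildtype erythroid-like cells, against 36.3 and 37.7 CPM in mutant and wildtype cluster 9. These prim1 intervals overlapped in both libraries. The flap endonuclease gene fen1, which trims Okazaki fragments, had its mutant maximum in progenitor-like cells (176 CPM) and its wildtype maximum in mesenchymal-like cells (170.5 CPM). Ligase gene lig1, whose product seals those fragments, had 209 CPM in mutant cluster 9 and 178 CPM in wildtype erythroid-like cells as its maxima. Neither change of maximum between libraries was beyond counting error. Intervals overlapped for fen1 with mutant mesenchymal-like (163.6 CPM) and wildtype progenitor-like cells (161.5 CPM). They overlapped for lig1 with mutant erythroid-like cells (199.9 CPM) and wildtype cluster 9 (167.4 CPM).

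Nucleotide and chromatin genes had their highest levels in different clusters. Thymidylate synthase gene tyms was at 206 CPM in mutant and 130.5 CPM in wildtype erythroid-like cells, and no other cluster exceeded 71.0 CPM in the mutant or 57.1 CPM in the wildtype library. The dUTPase gene dut, which keeps uracil out of DNA, was highest in cluster 9, with 378 CPM in the mutant and 453 CPM in the wildtype library. Nasp, a chaperone of histone H3, was highest in progenitor-like cells, with 190 CPM in the mutant and 199 CPM in the wildtype library. Its intervals there overlapped those of cluster 9, which had 145 CPM in the mutant and 182 CPM in the wildtype library. The second rrm2 feature (ENSDARG00000078069, named rrm2.1 below), which encodes a small subunit of ribonucleotide reductase, had 813 CPM in mutant and 706 CPM in wildtype cluster 9.

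**Figure D2:**
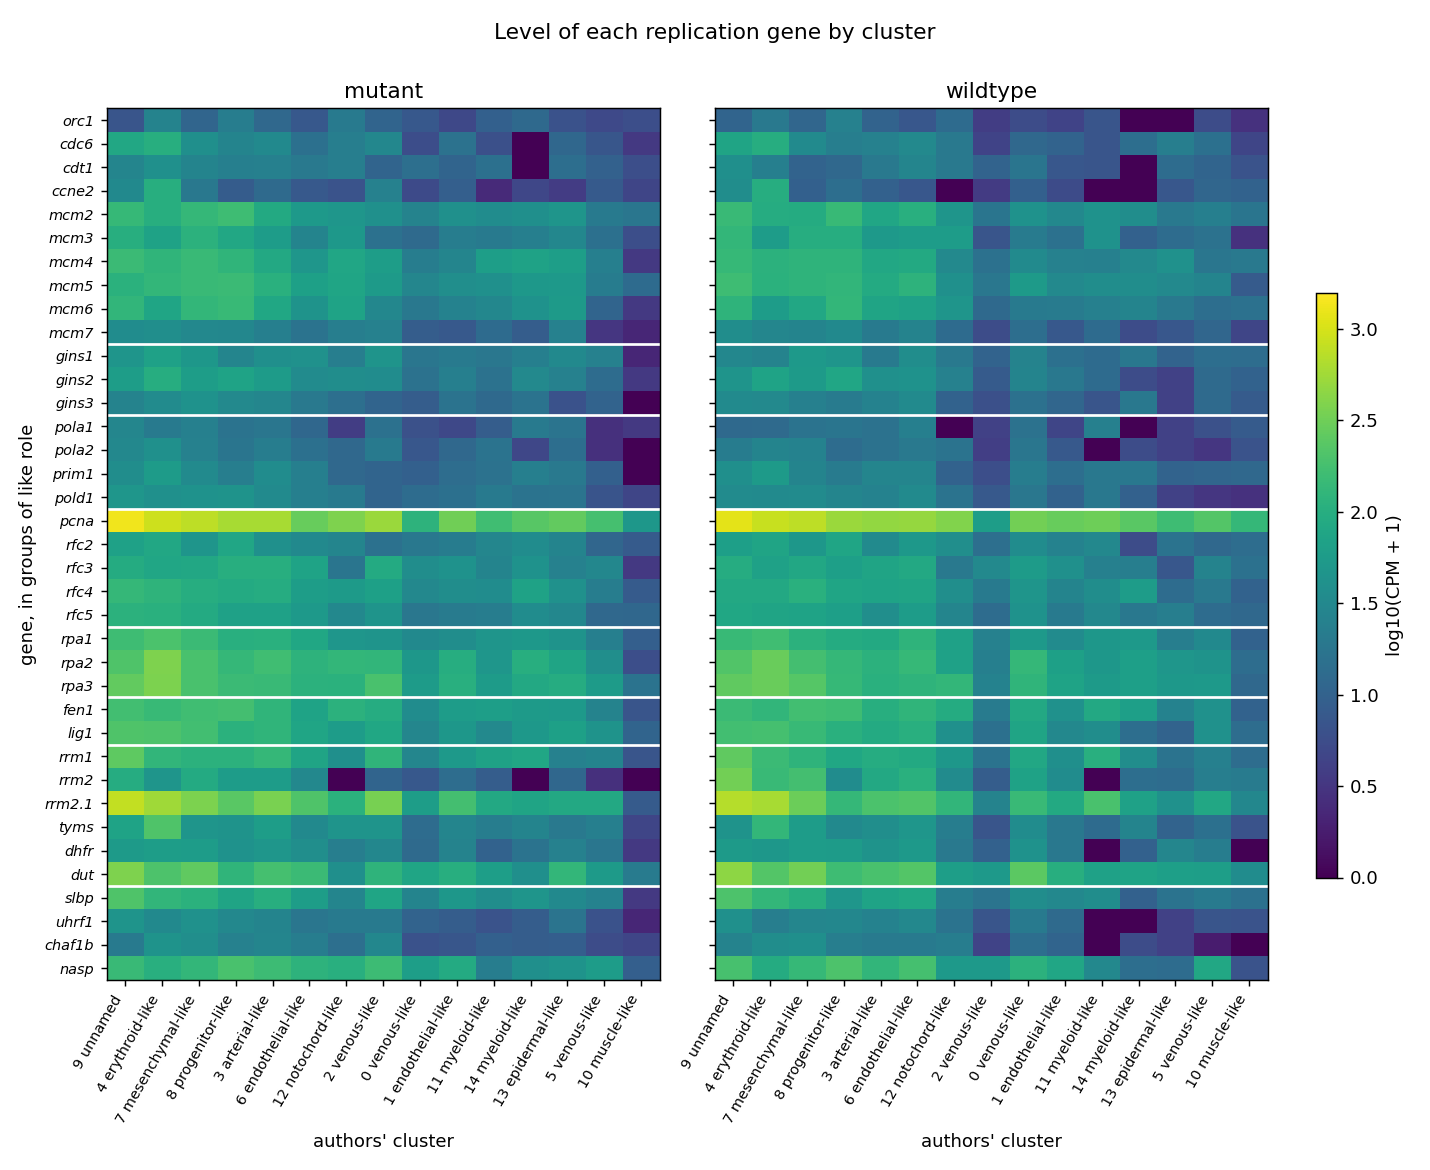
Level of each of the 37 replication features (rows, grouped by role between white lines) in each of the authors' 15 clusters (columns), mutant on the left and wildtype on the right, as log10(CPM + 1). The left columns (cluster 9, erythroid-, mesenchymal- and progenitor-like cells) are bright in most rows, and ccne2 is bright in the erythroid-like column with 99.4 CPM in mutant and 96.4 CPM in wildtype cells.

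The raw matrices show how these transcripts were spread over single cells. Cells were clustered without replication, mitotic or histone genes and thinned to 3000 UMIs each, and cells with at least 10 replication UMIs of 3000 were counted as replication-high, which is a range of a continuous measure and not a cell type. In erythroid-like cells 61.0% of mutant cells (1598 of 2619) and 52.3% of wildtype cells (669 of 1279) were replication-high, with medians of 11 and 10 UMIs. Mesenchymal-like cells had 58.4% in the mutant (125 of 214) and 55.2% in the wildtype library (111 of 201). Progenitor-like cells had 51.6% in the mutant (99 of 192) and 44.7% in the wildtype library (118 of 264). Endothelial-like cells had 17.6% in the mutant (664 of 3766) and 14.6% in the wildtype library (621 of 4243), with a median of 2 UMIs in both.

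Among endothelial-like cells, arterial-like cells were replication-high in 34.5% of mutant cells (297 of 860) and 26.3% of wildtype cells (284 of 1080). Venous-like cells were so in 8.28% of mutant cells (196 of 2368) and 6.70% of wildtype cells (188 of 2805). Myeloid-like cells stood between them, at 13.2% of mutant cells (51 of 387) and 15% of wildtype cells (28 of 187). Muscle-like cells were taken to lack replication, which was not tested. Of them 0 of 122 mutant cells, which allows an exact upper end of 2.98%, and 2 of 101 wildtype cells (1.98%) passed. Their median depths before thinning were 17595 UMIs in mutant and 21748 UMIs in wildtype cells. The arterial-, progenitor-, erythroid- and mesenchymal-like shares lay above that background in both libraries. The wildtype venous-like and epidermal-like shares lay under the upper end of the wildtype muscle-like interval, 6.97%. The 2 wildtype muscle-like cells that passed held 17 and 19 replication UMIs. An upper end that rests on 2 cells cannot decide whether these shares lie above background. No neural-like class separated in this clustering, so cluster 9 has no counterpart of its own.

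The shape of the distribution also differed between lineages. Of endothelial-like cells, 40.8% of mutant and 45.7% of wildtype cells had at most 1 replication UMI of 3000, whereas in erythroid-like cells these were 0.840% and 1.64%. The spread between cells beyond counting error, as a coefficient of variation, was 1.39 in mutant and 1.47 in wildtype endothelial-like cells and 0.368 in mutant and 0.413 in wildtype erythroid-like cells. At a depth of 10000 UMIs, with fewer cells left, the values were 1.17 and 1.29 in mutant and wildtype endothelial-like cells and 0.359 and 0.429 in erythroid-like cells. Pooled endothelial-like cells thus formed a large low group with a long tail. Erythroid-like cells formed a single broad hump across the threshold, with 27.6% of mutant and 28.1% of wildtype cells within 8 to 11 UMIs. The endothelial-like pool was mixed. At most 1 UMI was held by 53.2% of mutant and 58.8% of wildtype venous-like cells, against 16.5% and 20.3% of arterial-like cells. At 3000 UMIs the coefficients were 1.59 and 1.63 in mutant and wildtype venous-like and 0.956 and 1.02 in arterial-like cells.

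**Figure D3:**
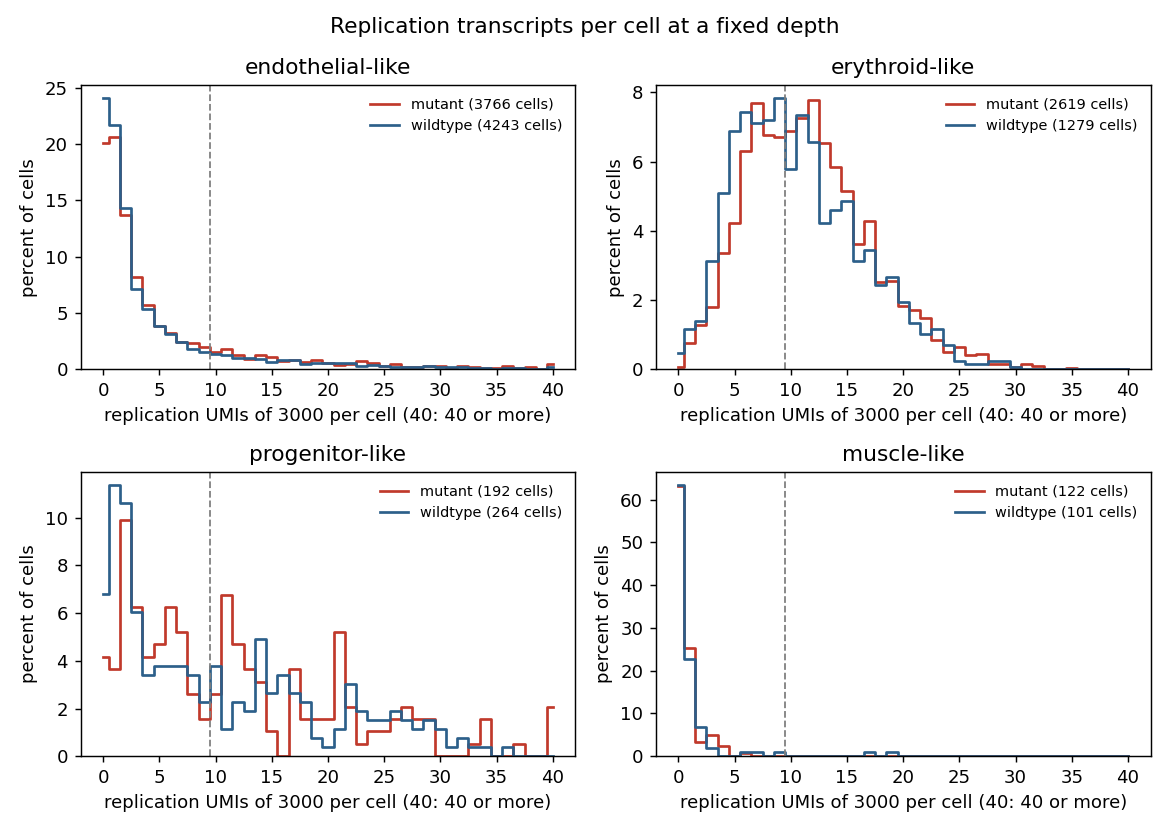
Percent of cells (vertical axis) by number of replication UMIs after thinning to 3000 UMIs per cell (horizontal axis), mutant in red and wildtype in blue, in 4 classes; the dashed line marks the threshold of 10 UMIs. Medians were 2 and 2 UMIs in mutant and wildtype endothelial-like cells, 11 and 10 in erythroid-like, 10 and 8 in progenitor-like and 0 and 0 in muscle-like cells.

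The members were high in the same cells, with wider folds in endothelial-like than in erythroid-like cells. For each feature, cells with at least 10 UMIs of the other 36 were set against the remaining cells of the class. In endothelial-like cells the level in the cells with at least 10 other UMIs was higher for all 37 features beyond counting error in both libraries, with a median fold of 6.52 in the mutant and 7.05 in the wildtype library. Features outside the 37 were not split in this way, so no share over all features stands beside this count. The class joins arterial-like and venous-like cells, whose replication-high shares differ, and the part of this in the folds was not tested. The widest folds were those of rrm2, 17.2 in the mutant (118 against 6.86 CPM) and 17.3 in the wildtype library (229 against 13.2 CPM). The narrowest were those of the loader gene cdt1, 1.87 in the mutant (26.7 against 14.3 CPM) and 1.91 in the wildtype library (21.9 against 11.5 CPM). Pcna had 1200 CPM in such cells against 113 CPM in the remaining cells of the mutant library, and 1295 against 107 CPM in the wildtype library.

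In erythroid-like cells the same comparison gave a median fold of 1.52 in the mutant and 1.73 in the wildtype library, and no feature reached 4-fold. There pcna had 885.5 CPM in the cells with at least 10 other UMIs against 488 CPM in the remaining mutant cells, and 892 against 488 CPM in wildtype cells. The remaining erythroid-like cells thus had a higher pcna level in CPM than the remaining endothelial-like cells did. Progenitor-like cells lay between the classes, with median folds of 3.15 in the mutant and 4.61 in the wildtype library over the 35 features with a fold. There cdt1 went the other way in the mutant library, with 6.80 CPM in the cells with at least 10 other UMIs and 21.3 CPM in the remaining cells. These rest on 2 and 6 UMIs, and the fold of 0.32 (0.0316 to 1.79) was within counting error. Depth of each cell is shared by all features, and thinning sets it to 1 value. Thinning does not even out the share taken by the most abundant features, whose part in these folds was not tested.

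**Figure D4:**
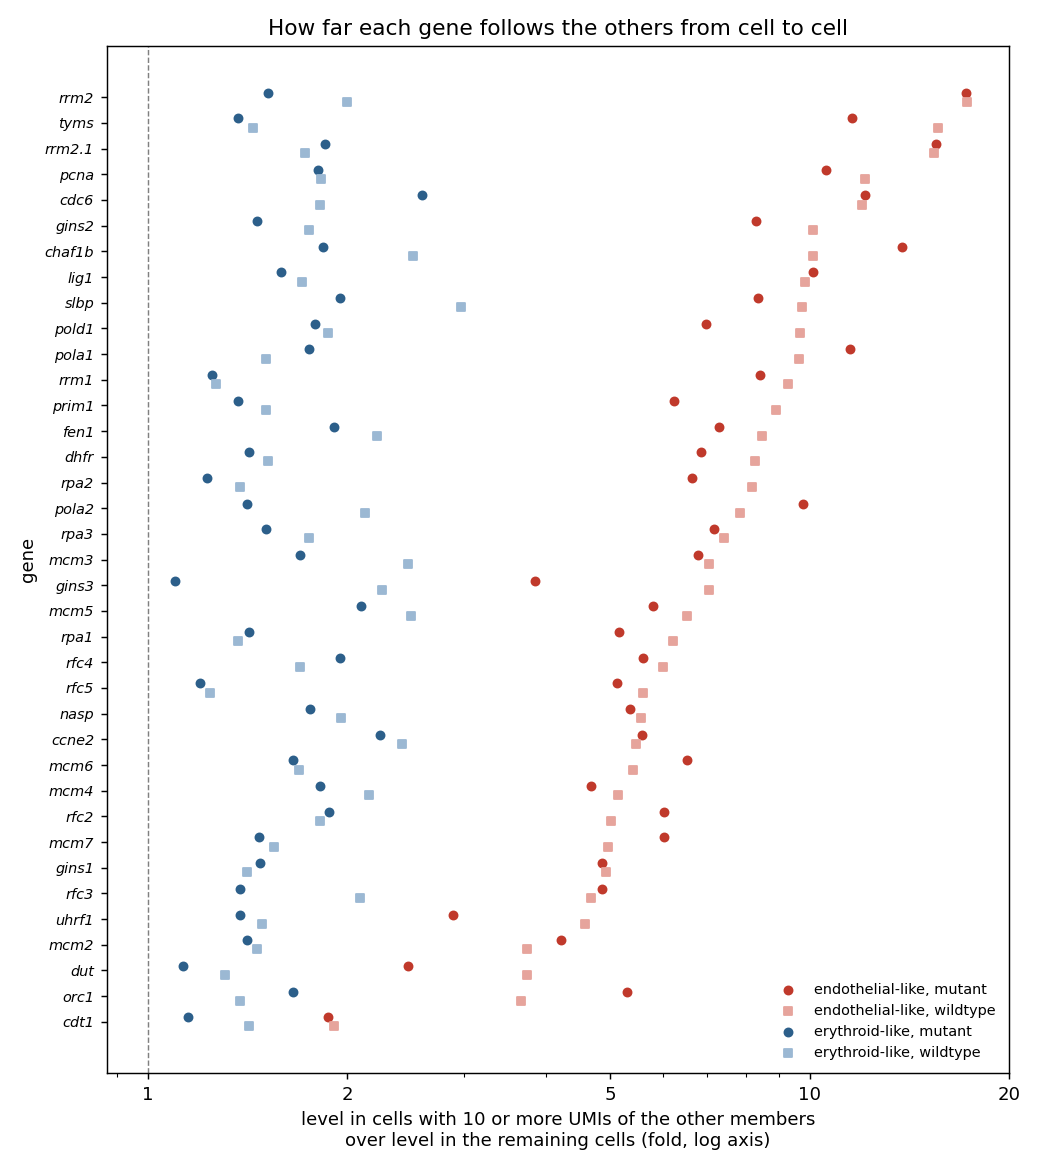
Fold (log axis) of each of the 37 features in cells with at least 10 UMIs of the other members over the remaining cells, in endothelial-like cells (red, pale for wildtype) and erythroid-like cells (blue, pale for wildtype). Endothelial-like points lie at 1.87 to 17.2 in the mutant and 1.91 to 17.3 in the wildtype library, and erythroid-like points at 1.1 to 2.60 and 1.24 to 2.97.

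Replication-high cells were not everywhere the cells with most mitotic transcripts. In a list of 34 mitotic genes, cells with at least 5 UMIs of 3000 were counted. Among venous-like cells, 31.1% of replication-high and 7.64% of other mutant cells passed, and 27.1% and 7.76% of wildtype cells. The venous-like class joins clusters that differ in both measures, and the part of this in these shares was not tested. Among arterial-like cells the intervals overlapped in both libraries. In the mutant library 33.3% (28.0 to 39.0) of replication-high and 35.9% (31.9 to 40) of other cells passed. In the wildtype library these were 32.7% (27.3 to 38.5) and 25.6% (22.6 to 28.8). Among erythroid-like cells the order was the other way, with 34.9% (32.5 to 37.2) of replication-high and 53.7% (50.6 to 56.8) of other mutant cells, and 35.6% and 67.9% of wildtype cells. Among progenitor-like cells 18.2% of replication-high and 31.2% of other mutant cells passed, and 13.6% and 17.8% of wildtype cells. These intervals overlapped in both libraries.

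Replication genes were on the whole slightly higher in mutant than in wildtype endothelial-like cells. Over the 6 endothelial-like clusters of the authors' table the summed level was 1669.9 CPM in the mutant and 1375 CPM in the wildtype library, a fold of 1.21 (exact interval 1.2 to 1.23). By role, GINS genes had the largest fold, 1.42 (1.33 to 1.52). Within that role gins1 had 1.69, gins2 1.39 and gins3 1.15 (0.998 to 1.33), the last within counting error. RPA genes as a group had a fold of 1.31 (1.26 to 1.36). Clamp and loader genes had the smallest, 1.16 (1.13 to 1.19), and licensing genes had 1.18 (1.14 to 1.22). Of the 33 members whose mean over both libraries reached 10 CPM, 31 (93.9%) were higher in the mutant library, with a median log2 ratio of 0.24, while 60.5% of all 5331 such features were higher, with a median of 0.06. The 4 features below that floor were ccne2, pola1, pola2 and orc1. These sums weigh cell numbers and RNA per cell together, which cannot be told apart in them.

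Few members passed a log2 ratio of 0.5, which served as the threshold for naming. The threshold was passed upward by rrm2.1 and gins1, 2 of 33 features, where 5.21% of all features passed. It was passed downward by rrm2, 1 of 33, where 3.34% of all features passed. A GINS subunit gene, gins1, had 25.2 CPM in the mutant and 14.9 CPM in the wildtype library, a log2 ratio of 0.72. Just short of the threshold, at a log2 ratio of 0.49 each, were tyms, with 26.8 CPM in the mutant and 18.8 CPM in the wildtype library, and slbp, whose product binds histone mRNA, with 48.2 CPM in the mutant and 34.0 CPM in the wildtype library. Folds of other leading members were small, 1.12 (1.09 to 1.16) for pcna with 264 CPM in the mutant and 235 CPM in the wildtype library, and 1.18 (1.1 to 1.28) for mcm5 with 48.9 CPM in the mutant and 41.4 CPM in the wildtype library. For nasp, with 89.5 CPM in the mutant and 83.5 CPM in the wildtype library, the fold was 1.07 (1.01 to 1.13).

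Clusters 0 and 2, which were split by library, went opposite ways, with a fold of 0.436 in cluster 0 and 4.70 in cluster 2. Mitotic genes moved with them, at 640 CPM in mutant and 2556 CPM in wildtype cells of cluster 0 and at 992 CPM in mutant and 188 CPM in wildtype cells of cluster 2. With clusters 0 and 2 pooled, the summed replication level was 959 CPM in the mutant and 766 CPM in the wildtype library, a fold of 1.25 (1.22 to 1.28). Leaving out 1 of them removes low cells of mostly 1 library, and the log2 ratio of the pooled sum was then -0.25 without cluster 2 and 0.82 without cluster 0, against 0.28 with both. Cluster 1 had a fold of 1.26 and cluster 5 of 0.889. With every cluster weighted alike in both libraries the pooled fold was 1.18, and in the classes rebuilt without cell cycle genes it was 1.12 (1.11 to 1.14). The rebuilt endothelial-like class was also unevenly filled, with 897 mutant and 1461 wildtype, 891 mutant and 510 wildtype, and 323 mutant and 876 wildtype cells in 3 of its venous-like clusters. In that class the share of replication-high endothelial-like cells was higher in the mutant library by 3.0 percentage points (Newcombe interval 1.38 to 4.62). At a threshold of 15 UMIs the difference was 1.77 points. Without thinning the difference was 2.80 points (16.5% of mutant and 13.7% of wildtype cells), and 661 mutant and 943 wildtype cells were left out of the thinned count as too shallow.

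Arterial-like cells showed the difference within a cluster of similar size in both libraries. In cluster 3 (782 mutant and 913 wildtype cells) the summed level was 3461 CPM in the mutant and 2689 CPM in the wildtype library, a fold of 1.29 (1.26 to 1.31). All 37 features passed the floor, and 35 of them were higher in the mutant library, where 50.7% of all 5523 features were. The median log2 ratio of the 37 was 0.34, and that of all features was 0.004. The threshold was passed upward by 8 features, rrm1, rrm2.1, tyms, gins1, slbp, rfc5, rpa2 and chaf1b, where 5.70% of all features passed, and downward by rrm2, where 5.88% did. Pcna had 601.5 CPM in the mutant and 476.5 CPM in the wildtype library, a fold of 1.26 (1.2 to 1.33). Clamp loader gene rfc5 had 66.3 CPM in the mutant and 37.4 CPM in the wildtype library, a fold of 1.77 (1.5 to 2.1). Of the licensing genes none passed, and mcm4 had 83.4 CPM in the mutant and 81.8 CPM in the wildtype library. Further replication genes outside the 36 symbols were higher in 26 of 27 features tested, with a median of 0.32, and mitotic genes in 26 of 31, with a median of 0.24. The list of cell cycle brakes and entry genes was higher in 4 of 10. Per cell, the rebuilt arterial-like class had a share of replication-high cells that was 8.24 points (4.12 to 12.35) higher in the mutant library, and both of its clusters had the higher share there, 28.9% of mutant against 21.1% of wildtype cells and 42.7% of mutant against 32.2% of wildtype cells. The summed level of that class had a smaller fold than cluster 3, 1.15 (1.13 to 1.17), and pcna a log2 ratio of 0.08. Among the deeper cells that could be thinned to 10000 UMIs, the direction was the other one, with a mean of 29.4 replication UMIs in 247 mutant and 32.4 in 343 wildtype arterial-like cells.

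Endothelial-like cluster 6 went the other way. Its 467 mutant cells had 2155 CPM and its 180 wildtype cells 3135 CPM, a fold of 0.688 (0.662 to 0.714). Of 35 features tested 33 were lower in the mutant library, where 3232 of all 5672 features were. The threshold was passed downward by 20 of the 35, where 12.7% of all features passed. No member passed upward, where 7.70% of all features did. Licensing genes had the lowest fold, 0.556 (0.505 to 0.612), with mcm5 at 64.2 CPM in the mutant and 115 CPM in the wildtype library and cdc6 at 14.4 CPM in the mutant and 31.4 CPM in the wildtype library. Pcna had 286 CPM in the mutant and 488 CPM in the wildtype library. GINS genes had a fold of 0.837 (0.688 to 1.02), within counting error, and gins1 had 40.3 CPM in the mutant and 35.6 CPM in the wildtype library. Summed mitotic genes had 765 CPM in the mutant and 869.5 CPM in the wildtype library, a fold of 0.879 (0.821 to 0.942). A rebuilt cluster led by the same genes, aqp8a.1 and apoc1, had 31.8% replication-high cells in the mutant (171 of 538) and 41.6% in the wildtype library (149 of 358), a difference of -9.84 points (-16.25 to -3.41). Mitotic genes went against cluster 6 in that rebuilt cluster, with 1539 CPM in the mutant and 1456 CPM in the wildtype library. The difference between cluster 6 and the arterial-like cells was not tested over samples.

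In progenitor-like cells the summed replication level was slightly higher in the mutant library, by an interval of counting error only. In cluster 8 (184 mutant and 183 wildtype cells) the fold was 1.12 (1.07 to 1.17). That interval leaves out the spread between cells. In the rebuilt class at 3000 UMIs this spread, as a coefficient of variation, was 0.792 in mutant and 0.84 in wildtype cells. Whether the fold exceeds that spread was not tested. Of 37 features 26 (70.3%) were higher, where 56.5% of all features were, with a median log2 ratio of 0.15 where that of all features was 0.05. The interval of the fold lay above 1 for 8 of the 37 and below 1 for 2, a count that was not made over all features. The threshold was passed upward by 7, where 13.3% of all features passed, and downward by 2, where 9.28% did, so the members' shares were near those of all features. Loader gene cdt1 had 23.3 CPM in the mutant and 11.1 CPM in the wildtype library, from 31 and 15 UMIs, a fold of 2.09 (1.1 to 4.17). Clamp loader gene rfc3 had 101 CPM in the mutant and 63.7 CPM in the wildtype library, and slbp had 72.1 CPM in the mutant and 47.4 CPM in the wildtype library. Polymerase delta gene pold1 had 42.8 CPM in the mutant and 27.4 CPM in the wildtype library, and the interval of its fold (1.01 to 2.43) came close to 1. Of the others past the threshold, gins3, with 30.8 CPM in the mutant and 20.8 CPM in the wildtype library, was within counting error. In the rebuilt progenitor-like class log2 ratios were 0.394 for cdt1, 0.221 for rfc3 and 0.091 for pold1, against 1.003, 0.661 and 0.624 in cluster 8. Those of slbp (0.495) and gins3 (0.526) stayed close to their cluster 8 values, 0.594 and 0.547.

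On the lower side in progenitor-like cells were gins1, with 27.8 CPM in the mutant and 45.9 CPM in the wildtype library (fold 0.605, 0.391 to 0.923), and ccne2, with 10 mutant and 18 wildtype UMIs, which was within counting error. Mitotic genes differed more than replication genes in this cluster, with 796.5 CPM in the mutant and 538 CPM in the wildtype library, a fold of 1.48 (1.35 to 1.63), and 20 of 22 tested features higher. The share of replication-high progenitor-like cells differed by 6.87 points at the threshold of 10 UMIs, with a counting interval of -2.40 to 15.98 that held 0. At 5 UMIs the difference was 10.13 points (1.33 to 18.53), and at 15 UMIs it was 0.05 points. Without thinning the shares were 47.5% of mutant and 43.1% of wildtype cells.

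In erythroid-like cells replication transcripts were higher in the mutant library on the CPM scale, but less so than most other genes. Cluster 4 gave a fold of 1.11 (1.09 to 1.13), and the larger and deeper rebuilt class gave 1.11 (1.1 to 1.11). Of 37 features 32 were higher, with a median log2 ratio of 0.24. The median over all 4047 features tested was 0.41, however, and 83.0% of them were higher, so only 10 of the 37 members lay above it. The 50 most abundant features took 56.4% of UMIs in mutant and 63.3% in wildtype cells, so the remaining features shared a larger part of the UMIs in the mutant library. Relative to the median ratio of all features the log2 ratio of the sum was -0.26, and with the 50 most abundant features left out of the totals it was -0.10. The direction of the erythroid-like difference thus depends on the scaling.

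Members differed more among themselves in erythroid-like cells than this sum shows. The threshold was passed upward by 7 of 37 features, where 41.6% of all features passed, and downward by rrm2, where 3.63% did. The highest was gins1, with 66.0 CPM in the mutant and 25.9 CPM in the wildtype library, a fold of 2.55 (2.11 to 3.11), and it remained above the median of all features. Loader gene cdt1 had 39.5 CPM in the mutant and 22.8 CPM in the wildtype library, and tyms 206 CPM in the mutant and 130.5 CPM in the wildtype library. The polymerase alpha genes pola1 and pola2 had 19.4 and 39.3 CPM in the mutant and 11.8 and 26.5 CPM in the wildtype library. Clamp loader genes rfc4 and rfc5 had 120.5 and 105.5 CPM in the mutant and 84.8 and 73.8 CPM in the wildtype library. Nucleotide supply genes as a group had a fold of 0.920 (0.893 to 0.949), with rrm1 at 125.5 CPM in the mutant and 152 CPM in the wildtype library. Without both rrm2 features the direction was the other one, with 591 CPM in the mutant and 552 CPM in the wildtype library, a fold of 1.07 (1.02 to 1.12). Mitotic genes were lower in 21 of 30 features tested, and their sum had 1279.9 CPM in the mutant and 1526 CPM in the wildtype library, a fold of 0.839 (0.815 to 0.863). In the rebuilt class, of the 7 features named upward, gins1 (log2 ratio 0.863), tyms (0.604) and rfc4 (0.508) also reached 0.5. The others did not, with 0.431 for rfc5, 0.352 for cdt1, 0.289 for pola1 and 0.154 for pola2.

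Per cell at 3000 UMIs, the share of replication-high erythroid-like cells was 8.71 points (5.40 to 12.02) higher in the mutant library, and 9.38 points without thinning. It was smaller at other thresholds, 3.97 points at 5 UMIs and 2.96 points at 15 UMIs. This class was made up of 4 rebuilt clusters, which held different parts of it in each library. The mutant cells came mostly from clusters with 972 and 718 mutant cells, against 177 and 94 wildtype cells, and the wildtype cells mostly from a cluster with 730 wildtype cells, against 630 mutant cells. Each of the 4 had the higher share in the mutant library, 60.1, 58.9, 63.4 and 63.9% of mutant cells against 52.3, 45.1, 56.2 and 55.4% of wildtype cells. The interval of the difference held 0 in the cluster with 94 wildtype cells. The shift in all features described above also enters these shares, and its part in them was not tested.

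**Figure D5:**
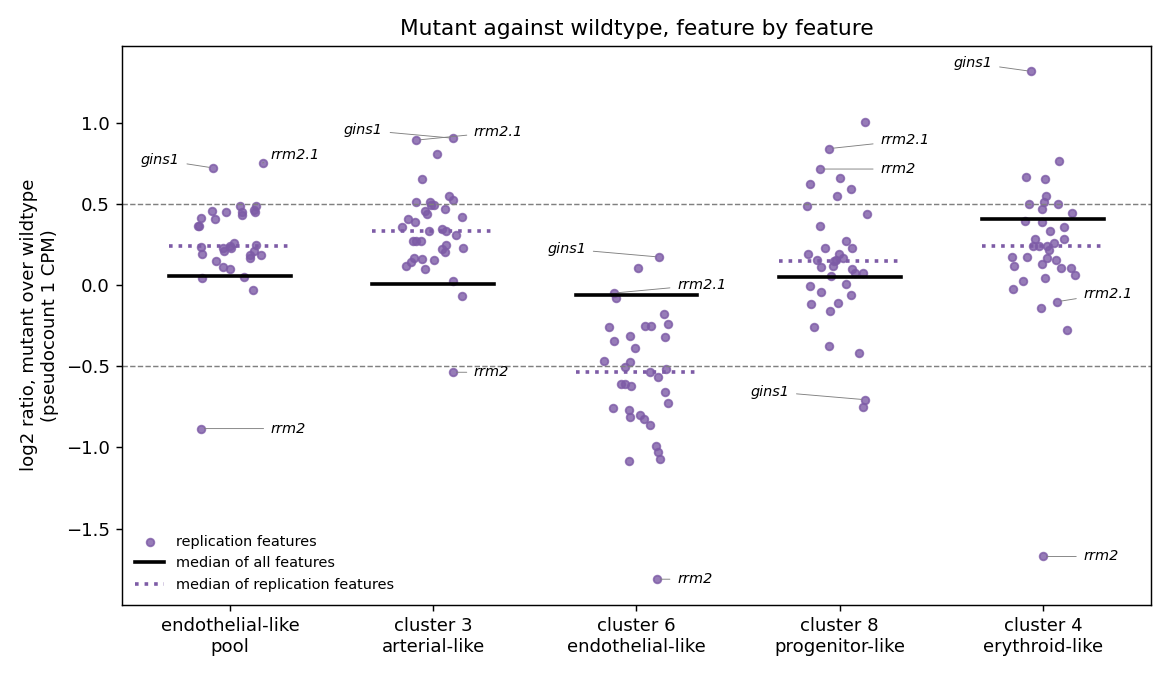
Log2 ratio of mutant over wildtype (vertical axis, pseudocount 1 CPM) for each replication feature whose mean reached 10 CPM, in 5 groups of cells of the authors' table. Solid lines are medians of all features and dotted lines medians of the replication features, 0.24 against 0.06 in the endothelial-like pool, -0.54 against -0.06 in cluster 6 and 0.24 against 0.41 in erythroid-like cells; dashed lines mark the threshold of 0.5 either way.

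In the remaining clusters the differences were mixed. In cluster 9 the fold was 1.02 (0.973 to 1.07), within counting error. Mesenchymal-like cluster 7 had 1.05 (1.01 to 1.09), with mitotic genes at 1939 CPM in the mutant and 1200.0 CPM in the wildtype library. In the rebuilt mesenchymal-like class, which may also hold cells like those of cluster 9, the fold was 0.976. Epidermal-like cluster 13, with 46 mutant and 43 wildtype cells, had 1529.7 CPM in the mutant and 778 CPM in the wildtype library, a fold of 1.97 (1.69 to 2.29), and the rebuilt epidermal-like class had replication-high shares of 14% of mutant (13 of 93) and 3.85% of wildtype cells (3 of 78). Notochord-like cells had a fold of 1.12 (1.0 to 1.26). Of the myeloid-like clusters, cluster 11 (157 mutant and 18 wildtype cells) had 0.823 and cluster 14 (30 mutant and 33 wildtype cells) had 1.36. The rebuilt myeloid-like class had 1490.0 CPM in the mutant and 1652 CPM in the wildtype library, a fold of 0.902 (0.874 to 0.931), and both of its clusters had the lower level in the mutant library. In muscle-like cells the fold was 0.477, at levels that stand here as background, and in the rebuilt muscle-like class the levels were 236 CPM in the mutant and 235 CPM in the wildtype library.

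The 2 rrm2 features, both small subunits of ribonucleotide reductase by symbol, did not move alike in all clusters. They went opposite ways, each beyond counting error, in clusters 1, 3, 7 and 9. Both had the same direction in clusters 0, 2, 4, 6, 8, 10 and 12. The first (ENSDARG00000020711) was lower in the mutant library in 12 of 15 clusters, in 10 of them beyond counting error, and higher beyond counting error in progenitor-like cluster 8 alone. In erythroid-like cells it had 45.4 CPM in the mutant and 147 CPM in the wildtype library, in cluster 9 93.7 CPM in the mutant and 333 CPM in the wildtype library, and in the endothelial-like pool 19.96 CPM in the mutant and 37.7 CPM in the wildtype library. In progenitor-like cells it had 57.8 CPM in the mutant and 34.8 CPM in the wildtype library. The other feature, rrm2.1, was higher in the mutant library in 9 of 15 clusters, in 7 beyond counting error, and lower beyond counting error in 4. It had 154 CPM in the mutant and 91.1 CPM in the wildtype library over the endothelial-like pool, 241 CPM in the mutant and 134 CPM in the wildtype library in progenitor-like cells, and 560.2 CPM in the mutant and 601 CPM in the wildtype library in erythroid-like cells. Rows of the authors' table carry symbols only and were matched to the 2 identifiers by their order. By Ensembl identifier in the rebuilt classes, the first was lower in the mutant library in endothelial-, erythroid-, myeloid-, mesenchymal-, muscle- and epidermal-like cells and higher in progenitor- and notochord-like cells. Rebuilt notochord-like cells, with 32 mutant and 17 wildtype UMIs, thus went against cluster 12, and rebuilt myeloid-like cells went against cluster 11 for both features. In the rebuilt classes the first had 20.6 CPM in mutant and 86.6 CPM in wildtype erythroid-like cells and 125 CPM in mutant and 70.4 CPM in wildtype progenitor-like cells, and rrm2.1 had 327 CPM in mutant and 334 CPM in wildtype erythroid-like cells. How reads that fit both copies were counted was not examined, so each value is uncertain. Leaving both out gave pooled folds of 1.2 in endothelial-like, 1.17 in erythroid-like and 1.08 in progenitor-like cells.

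Of the other members, dut and pold1 had the same direction in the most clusters of the authors' table, 13 of 15 each. The dUTPase gene dut was lower in the mutant library in 13, in 6 beyond counting error, and higher beyond counting error in 2. It had 107 CPM in the mutant and 109 CPM in the wildtype library over the endothelial-like pool. In the rebuilt classes dut was lower in the mutant library in endothelial-, progenitor-, myeloid-, mesenchymal- and notochord-like cells. It was higher there in muscle-, epidermal- and erythroid-like cells. The rebuilt erythroid-like level, 161 CPM in the mutant and 147 CPM in the wildtype library, thus went against cluster 4. Polymerase gene pold1 was higher in the mutant library in 13, in 3 beyond counting error. In the rebuilt classes pold1 was lower in erythroid-like (log2 ratio -0.039) and myeloid-like cells (-0.586) and higher in the others. The GINS gene gins1 was higher in 11, in 4 beyond counting error, and lower beyond counting error in 3, which were venous-like cluster 0, progenitor-like cluster 8 and muscle-like cluster 10.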

How the data were processed

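Cells of 1 mutant and 1 wildtype library were profiled with the 10x Chromium 3′ chemistry. The submitters' processing notes name bcl2fastq, Cell Ranger, Seurat and the build GRCz11, and the deposited matrix header gives software version 3.0.2. The deposited matrices hold raw UMI counts per gene and cell. The deposited table of the authors holds, per cluster and library, a mean signal in UMIs per cell. Multiplied by the number of cells that makes all 534660 of its values whole within 1e-06, it gave UMI sums, from which CPM, exact Poisson intervals and exact conditional ratio intervals (95%, counting error only) were computed. No feature was tested across samples, since each group has 1 library. A feature was called past the threshold where its mean was at least 10 CPM and its log2 ratio, with a pseudocount of 1 CPM, was at least 0.5 either way. PCR duplicates were collapsed by UMI.

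From the raw counts, a cell passed with 500 or more genes detected and no more than 10% of its UMIs mitochondrial (8464 mutant and 7520 wildtype cells). Scrublet, at an expected rate of 6%, then marked 224 mutant and 39 wildtype cells (2.65 and 0.519%), which were removed. The low wildtype rate means that doublets may remain. Cells were clustered with scanpy 1.11.5 and leidenalg 0.10.2 (2000 variable genes, 30 components, 20 neighbours, resolution 1), with 166 replication, mitotic, brake and histone features left out. Names come from marker lists: at least 3 markers raised 2-fold and no contradiction among the 10 leading genes. Cells were thinned to 3000 UMIs, and shares have Clopper-Pearson and their differences Newcombe 95% intervals.

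The members, the lists and the tests were chosen with earlier results of these data known. Genes named are the member of highest mean in each role, members past the threshold and members with the extreme level or fold. The alternatives tried were scaling, floor, pseudocount, fold, thinning depth, threshold per cell, doublets, clustering and leaving out pcna, rrm2 or single clusters. Scripts were tested on simulated data. Sequences and coordinates are not used here.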

Additional observations from a re-analysis of the deposited data

Results flagged for a closer look

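The log2 ratio of the summed replication level, mutant over wildtype, differed in sign between clusters of the authors' table, and the difference between clusters was not tested. It was above 0 in cluster 1 (0.331), cluster 2 (2.232), cluster 3 (0.364), cluster 4 (0.150), cluster 7 (0.070), cluster 8 (0.162), cluster 12 (0.168), cluster 13 (0.976) and cluster 14 (0.446). It was below 0 in cluster 0 (-1.199), cluster 5 (-0.169), cluster 6 (-0.540), cluster 10 (-1.069) and cluster 11 (-0.281).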

How the results depend on the processing

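The log2 ratio of the summed level in the endothelial-like pool, 0.28, was 0.167 in the rebuilt class, 0.239 as the median over members, 0.224 with median-ratio scaling and 0.303 without pcna. Under alternatives chosen after seeing the data it was 0.237 with clusters weighted alike, 0.822 without cluster 0, 0.259 without cluster 1, 0.223 without cluster 3, 0.322 without cluster 5, 0.304 without cluster 6 and -0.248 without cluster 2. The erythroid-like ratio, 0.15, was 0.242 as the median over members, 0.221 without both rrm2 features, -0.255 with median-ratio scaling and -0.1 with totals without the 50 most abundant features. The ratio of nucleotide supply genes in erythroid-like cells, -0.12, was 0.098 without both rrm2 features, which was also chosen after seeing the data. The difference in the erythroid-like share, 8.71 points, was 2.96 points at a threshold of 15 UMIs and 3.97 points at 5 UMIs. The number of members past the threshold in the endothelial-like pool, 3, was 0 at a log2 ratio of 1. The cause of these changes was not tested. Another 36 values stayed within the counting interval of the reported one, or within 1.5 times it for a number of members or places. That interval is wide for the progenitor-like share, whose difference of 6.87 points was 10.13 points (1.33 to 18.53) at 5 UMIs and 0.05 points at 15 UMIs. The order of clusters of the table kept at least 12 of 15 places within 1. No paired analysis was possible because each group has 1 library. Counting intervals do not cover variation between cells or between fish, and members with few UMIs are limited by depth.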
